A study of Mus musculus with 8 samples.

Results

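Ribosome biogenesis and RNA polymerase I (Pol I) were followed here through 36 genes, in a list chosen with earlier results of these data known. The list held Pol I subunits and initiation factors, small nucleolar RNA (snoRNA) protein complexes and abundant nucleolar proteins. It also held factors for the small and large ribosomal subunits, and a helicase and a regulator of Pol I. All 36 were among the 23238 gene symbols in the files, each on 1 line, and all 36 had enough reads to be among the 13347 genes tested. The RNA came from uterine stromal cells, which form the connective tissue beneath the epithelium, of C57BL/6-ICR mice without ovaries (ovariectomized). The 4 groups of 2 libraries were Atg7-deleted mice (Atg7d/d) given estradiol (E2) or oil, and control mice (Atg7f/f, the floxed gene intact) given estradiol or oil. In the deleted mice the autophagy gene Atg7 was removed by Cre expressed from Amhr2, which is active in mesenchyme around the embryonic female tract. No labelled group carried Cre beside an intact Atg7, and the effects of Cre and of the deletion cannot be told apart. The labels used here give no dose, no time after injection and no method of cell separation, and do not state whether each library is a separate animal. P-values therefore cover the spread between these samples, which may be technical.

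Ribosomes are made in the nucleolus, where Pol I transcribes the long precursor of the ribosomal RNAs (rRNAs). SnoRNA-protein particles guide chemical modification of the precursor, box C/D particles for methylation and box H/ACA particles for pseudouridine, while processing factors cut it and assemble the 2 subunits. Estradiol makes the resting uterus grow, and growth of a tissue draws on new ribosomes. Levels below are CPM, a gene's reads scaled to a common library size, and are not divided by transcript length, so they rank genes only as far as the reads came from 3′ ends, as the kit's name in the labels says. The catalogue number given with that name was not matched to a 3′ kit here. Mean levels of the 36 genes ran from 9.20 CPM for Wdr12 to 1112 CPM for Ncl.

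Library totals lay between 5458390 and 6951080 counts. Atg7 had 23 and 22 reads in deleted estradiol libraries, 21 and 33 in deleted oil, 20 and 23 in control estradiol and 22 and 32 in control oil, so these counts do not show the deletion. Reads from 3′ ends would not see a loss of internal exons, and that the reads are 3′ reads, as the kit's name says, was not tested. The first principal component, 66.0% of the variance, separated the 4 estradiol libraries from the 4 oil libraries. The second, 12.1%, split the oil libraries by number: library 1 lay at -14.6 and library 2 at 33.8 in deleted stroma, and at -46.1 and 35.8 in control stroma. The libraries also differed in markers of other cells. The 16 epithelium markers summed to 1380 and 1884 CPM in deleted estradiol, 11341 and 4799 in deleted oil, 1345 and 2934 in control estradiol and 18172 and 6137 in control oil, and none of the 16 was at 0 in all libraries. With estradiol, 6 of them fell in deleted stroma and 8 in control stroma, and none rose. Cldn4, a tight junction protein of epithelia, had 304 and 440 CPM in deleted estradiol against 4233 and 1747 in deleted oil, and 305 and 749 in control estradiol against 6414 and 2324 in control oil. The 16 stroma markers summed to 10306 and 9554 CPM in deleted estradiol, 3307 and 4080 in deleted oil, 10108 and 7286 in control estradiol and 2774 and 3337 in control oil. With estradiol, 9 of them rose and none fell in deleted stroma, and 9 rose and 2 fell in control stroma. Much of the estradiol sums lay in Col1a1 and Col1a2. Col1a1 had 1929 and 2036 CPM in deleted estradiol against 42.7 and 61.3 in deleted oil. In control stroma it had 1888 and 1196 against 39.6 and 48.7. Dcn ran the other way, with 1131 and 1102 CPM against 1384 and 1526 in deleted stroma. In control stroma Dcn had 743 and 707 against 1251 and 1023. The 10 smooth muscle markers summed to 9204 and 10700 CPM in deleted estradiol, 4594 and 6048 in deleted oil, 8032 and 9512 in control estradiol and 2434 and 4982 in control oil, with 4 up and 1 down in deleted stroma and 5 up and none down in control stroma. The 7 erythroid markers summed to 351 and 383 CPM in deleted estradiol, 233 and 241 in deleted oil, 496 and 276 in control estradiol and 163 and 199 in control oil. Of the 5 tested, none was called in deleted stroma and 4 rose in control stroma. The part of these marker shifts in the results below was not tested. In such bulk RNA, fewer cells of a type and less RNA per cell cannot be told apart.

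Promoter windows are printed for 5 of the 12 genes that were called with estradiol in at least 1 genotype and have a window. Utp20 and Pes1, which rose, and Wdr43, which fell, are the 3 of these 12 with an E-box, and Dkc1 and Nhp2, which rose, are shown as examples of the other 9 without it. Each window holds 250 bases before and 50 bases after the gene's start in RefSeq (build GRCm38.p6), printed 5′ to 3′ along the gene, and capitals mark the E-box CACGTG, the letters bound by Myc and other factors of its family. The windows lie at chr10:88826765-88827064 on the minus strand for Utp20, and on the plus strand at chr11:3963725-3964024 for Pes1, chr17:71615965-71616264 for Wdr43, chrX:75095604-75095903 for Dkc1 and chr11:51619523-51619822 for Nhp2.
Utp20: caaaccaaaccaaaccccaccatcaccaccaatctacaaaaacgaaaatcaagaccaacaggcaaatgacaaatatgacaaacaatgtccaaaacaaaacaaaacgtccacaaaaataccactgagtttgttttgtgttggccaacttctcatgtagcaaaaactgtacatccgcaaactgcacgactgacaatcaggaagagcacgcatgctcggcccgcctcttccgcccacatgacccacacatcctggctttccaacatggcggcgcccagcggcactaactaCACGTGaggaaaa
Pes1: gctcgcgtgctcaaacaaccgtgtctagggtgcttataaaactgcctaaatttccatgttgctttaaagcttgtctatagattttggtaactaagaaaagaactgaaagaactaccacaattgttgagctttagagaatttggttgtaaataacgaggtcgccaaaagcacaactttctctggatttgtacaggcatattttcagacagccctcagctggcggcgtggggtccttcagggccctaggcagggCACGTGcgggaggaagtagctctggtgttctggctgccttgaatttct
Wdr43: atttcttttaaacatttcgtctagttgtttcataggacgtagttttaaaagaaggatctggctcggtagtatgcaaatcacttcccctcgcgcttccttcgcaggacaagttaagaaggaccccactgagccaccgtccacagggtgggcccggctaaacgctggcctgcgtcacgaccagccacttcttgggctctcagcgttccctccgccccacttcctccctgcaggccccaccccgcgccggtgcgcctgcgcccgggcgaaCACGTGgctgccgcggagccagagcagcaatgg
Dkc1: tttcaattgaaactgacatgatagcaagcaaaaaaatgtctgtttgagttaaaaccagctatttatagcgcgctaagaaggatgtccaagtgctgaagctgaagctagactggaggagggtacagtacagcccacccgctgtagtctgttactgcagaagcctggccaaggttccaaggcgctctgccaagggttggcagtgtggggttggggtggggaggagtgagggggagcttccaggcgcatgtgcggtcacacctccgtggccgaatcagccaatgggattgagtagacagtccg
Nhp2: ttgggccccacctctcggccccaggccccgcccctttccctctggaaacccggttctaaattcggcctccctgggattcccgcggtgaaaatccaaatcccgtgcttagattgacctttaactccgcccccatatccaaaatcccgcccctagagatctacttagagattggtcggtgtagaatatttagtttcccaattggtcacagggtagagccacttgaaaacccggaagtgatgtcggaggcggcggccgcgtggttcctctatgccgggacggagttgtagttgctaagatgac

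The E-box stood 37 bases after the start of Utp20, 2 after that of Pes1 and 17 after that of Wdr43, counting the start base as 0, and the printed windows of Dkc1 and Nhp2 do not hold these letters. RefSeq windows were found for 31 of the 36 genes, 40 windows in all. The names Fbl, Npm1, Rrp12, Bop1 and Rrs1 had no entry. Of the 40 windows, 6 (15%) held CACGTG, against 7.15% of the 32851 mouse windows of the same length, and the other 3 genes with it were Rrn3, Nop2 and Mybbp1a. The palindromic estrogen response element, named here without its letters, was in 0 of the 40 windows and in 0.07% of all windows. The unit it repeats, GGTCA, was in 40% of the members' windows and 40.5% of all. The GC box GGGCGG was in 70.0% of the members' windows, against 35.7% of all. All motifs were searched on both strands, GGTCA is part of the palindrome, and a match is a description of letters only.

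The first question was whether estradiol changed these genes. In Atg7-deleted stroma, 8 of the 36 rose (Polr1a, Dkc1, Nop10, Nhp2, Npm1, Utp20, Bop1 and Wdr12), 2 fell (Wdr43 and Rrp1b) and 26 did not pass the test, edgeR's quasi-likelihood test with p-values adjusted by Benjamini and Hochberg over all 13347 genes and called below 0.05. In control stroma, 9 rose (Polr1d, Dkc1, Nop10, Nhp2, Npm1, Utp20, Heatr1, Bop1 and Pes1), 3 fell (Nolc1, Wdr43 and Rrp1b) and 24 did not pass. Over all tested genes, 24.3% were called in deleted stroma (13.1% up and 11.2% down) and 29.8% in control stroma (15.8% up and 14% down). The members' shares were 22.2% up and 5.56% down in deleted stroma, and 25% up and 8.33% down in control stroma. In total the members were therefore called about as often as any gene, and their calls leaned to rises. Because the list was chosen with earlier results of these data known, this lean cannot be taken as independent of them. Rises also outnumbered falls among the 152 other tested genes of the pathway together, described below (22 to 4 in deleted and 24 to 5 in control stroma). The members' median log2 fold change was 0.41 in deleted stroma and 0.50 in control stroma, beside 0.02 and 0.01 over all tested genes.

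Both genotypes together called 6 members up (Dkc1, Nop10, Nhp2, Npm1, Utp20 and Bop1) and 2 down (Wdr43 and Rrp1b). The 2 estimates share no library, and 34 of the 36 members (94.4%) had the same sign in both, against 85.9% of all tested genes. Across the 36 genes, the fold changes in deleted and control stroma correlated at r = 0.938, beside 0.867 over all tested genes, as a description over genes that are not independent replicates. With the 2 genotypes averaged, which uses all 8 libraries, 17 members rose and 5 fell (47.2% and 13.9%), against 24.1% and 22.2% of all genes, 46.3% in both directions. Libraries did not overlap between estradiol and oil for 27 of 36 members in deleted stroma (22 higher with estradiol and 5 lower) and for 28 in control stroma (21 higher and 7 lower). Over all tested genes, 35.5% were higher and 32.7% lower without overlap in deleted stroma, and 33.8% higher and 31.7% lower in control stroma.

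**Figure D1:**
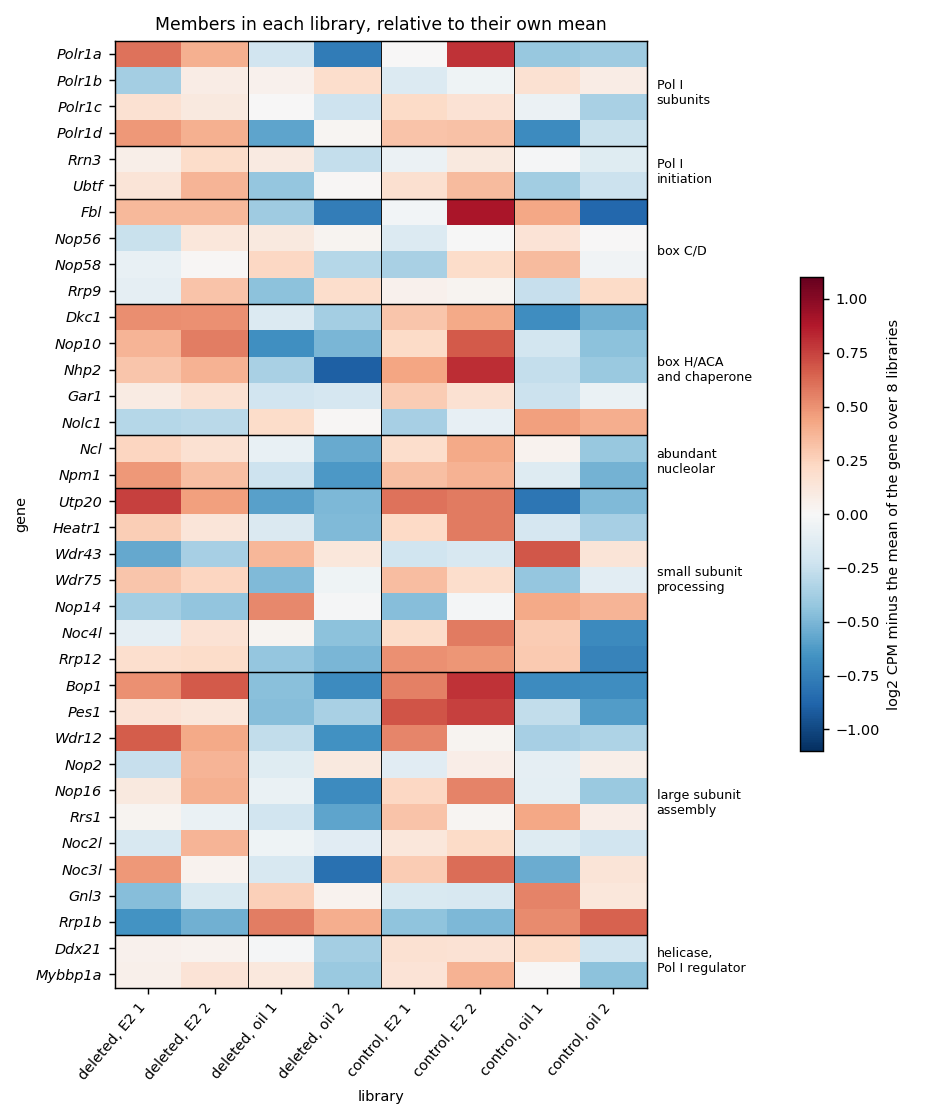
Each cell is the log2 CPM of 1 gene (vertical axis, grouped by role) in 1 library (horizontal axis) minus that gene's mean over the 8 libraries, on a colour scale from blue (lower) to red (higher). Dkc1, Nop10, Nhp2, Npm1, Utp20, Bop1 and Pes1 are red in estradiol libraries and blue in oil libraries, while Wdr43 and Rrp1b run the other way. Nolc1, Gnl3 and Nop14 also run the other way, apart from libraries near their means. These are deleted oil library 2 for each of them, and control estradiol library 2 for Nop14.

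**Figure D2:**
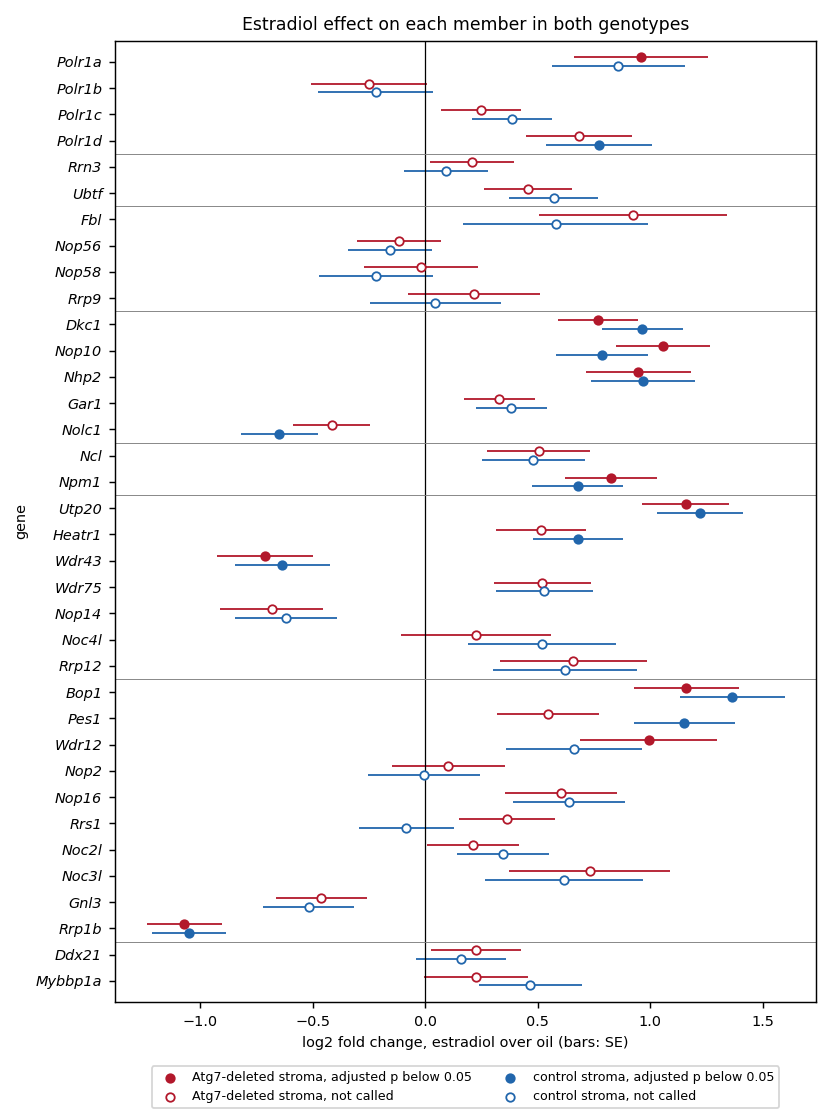
Log2 fold change of estradiol over oil (horizontal axis, bars: SE) for each of the 36 genes (vertical axis) in Atg7-deleted stroma (red) and control stroma (blue), with filled points for an adjusted p below 0.05. The paired points lie on the same side of 0 for 34 genes, and range from -1.07 for Rrp1b in deleted stroma to 1.36 for Bop1 in control stroma.

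Among the 4 Pol I subunits measured, the largest subunit and a subunit shared with RNA polymerase III (Pol III) were each called up in 1 genotype. Polr1a (chromosome 6, 71909053 to 71984935, plus strand; mm10, GENCODE M21, here and below), the catalytic largest subunit, had 37.4 and 32.4 CPM in deleted estradiol, 21.3 and 14.5 in deleted oil, 24.7 and 42.9 in control estradiol and 18.5 and 18.8 in control oil. Both estradiol libraries of each genotype lay above both of its oil libraries, and the 2 control estradiol libraries were far apart. Its log2 fold change was 0.96 ± 0.30 (SE, here and below) in deleted stroma (adjusted p = 0.0443) and 0.86 ± 0.30 in control stroma (adjusted p = 0.0561). Polr1d, which also serves Pol III, had 113 and 107 CPM in deleted estradiol, 54.4 and 82.7 in deleted oil, 101 and 102 in control estradiol and 50.3 and 68.7 in control oil. Its estradiol libraries lay close together and above all oil libraries, and the oil libraries numbered 1 were the lowest. The log2 fold change was 0.68 ± 0.23 in deleted stroma (adjusted p = 0.0627) and 0.77 ± 0.24 in control stroma (adjusted p = 0.0367). Polr1c, the other subunit shared with Pol III, had log2 fold changes of 0.25 and 0.39, and Polr1b, next to Polr1a the largest subunit, had -0.25 and -0.22, in deleted and control stroma, and neither passed. A call for Polr1a in deleted stroma was lost without any 1 of the 4 deleted libraries (adjusted p 0.0645 to 0.213) and, at 0.0518, under upper quartile scaling. That for Polr1d in control stroma was lost without either deleted estradiol library, either control estradiol library or control oil library 1 (adjusted p 0.0663 to 0.128).

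The initiation factors did not pass in either genotype alone. Ubtf, which binds along the ribosomal DNA and keeps it open for Pol I, had 189 and 221 CPM in deleted estradiol, 127 and 172 in deleted oil, 193 and 217 in control estradiol and 131 and 145 in control oil. Estradiol libraries lay above oil libraries in both genotypes, with log2 fold changes of 0.46 ± 0.20 in deleted stroma (adjusted p = 0.12) and 0.57 ± 0.20 in control stroma (adjusted p = 0.0563). With the genotypes averaged, Ubtf rose by 0.51 ± 0.14 (adjusted p = 0.015). Rrn3, the factor that ties Pol I to the promoter, had 0.21 ± 0.19 and 0.09 ± 0.19 in deleted and control stroma, and averaged 0.15 ± 0.13 (adjusted p = 0.377).

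The 2 kinds of snoRNA particle hold 4 and 5 of these genes, too few to compare by counts of calls. Over all tested genes, 24.3% were called in deleted stroma and 29.8% in control stroma. None of the 4 box C/D genes passed in any of the estradiol comparisons. Nop58, a core protein of the particle, had 235 and 251 CPM in deleted estradiol, 293 and 201 in deleted oil, 196 and 287 in control estradiol and 318 and 244 in control oil. The groups overlapped in both genotypes, and the log2 fold changes were -0.02 ± 0.25 and -0.22 ± 0.25. Nop56, its partner, had -0.12 ± 0.19 and -0.16 ± 0.19, and Rrp9, a protein of the particle that guides cutting of the precursor, had 0.22 ± 0.29 and 0.05 ± 0.29. The exons of Nop56 overlap those of Idh3b on the other strand, and Idh3b rose in both genotypes, at 0.54 (adjusted p = 0.0454) and 0.65 (adjusted p = 0.0204). Fbl, the methyltransferase of these particles, had 44.8 and 45.0 CPM in deleted estradiol, 26.7 and 20.6 in deleted oil, 34.4 and 65.3 in control estradiol and 47.2 and 19.3 in control oil. Its estradiol and oil libraries lay apart in deleted stroma, at 0.92 ± 0.42, and overlapped in control stroma, at 0.58 ± 0.41, and it passed in neither (adjusted p = 0.136 and 0.313).

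Of the 5 box H/ACA genes, 3 of the 4 core proteins rose in both genotypes. Dkc1 (chromosome X, 75095854 to 75109777, plus strand), the pseudouridine synthase that is also part of telomerase, had 66.0 and 65.3 CPM in deleted estradiol, 41.6 and 35.6 in deleted oil, 57.1 and 61.8 in control estradiol and 28.9 and 32.0 in control oil. All 4 estradiol libraries lay above all 4 oil libraries, at 0.77 ± 0.18 in deleted stroma (adjusted p = 0.0157) and 0.96 ± 0.18 in control stroma (adjusted p = 0.0055). Nop10 (chromosome 2, 112261926 to 112263269, plus strand), a small core protein, had 126 and 144 CPM in deleted estradiol, 61.2 and 69.0 in deleted oil, 113 and 156 in control estradiol and 84.6 and 71.3 in control oil. Its rise was 1.06 ± 0.21 in deleted stroma (adjusted p = 0.0083) and 0.79 ± 0.21 in control stroma (adjusted p = 0.021), with no overlap in either. Nhp2 (chromosome 11, 51619735 to 51623714, plus strand), which binds the RNA of the particle, had 49.7 and 52.6 CPM in deleted estradiol, 31.4 and 21.6 in deleted oil, 54.3 and 70.8 in control estradiol and 33.6 and 30.3 in control oil. Again no estradiol library reached down to an oil library, at 0.95 ± 0.23 (adjusted p = 0.0199) and 0.97 ± 0.23 (adjusted p = 0.0147). Gar1, the fourth core protein, did not pass in a single genotype, at 0.33 ± 0.16 and 0.38 ± 0.16, and passed with the genotypes averaged, at 0.36 ± 0.11 (adjusted p = 0.0285).

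Nolc1, the nucleolar chaperone of the same particles, ran against them. It had 90.0 and 90.6 CPM in deleted estradiol, 128 and 112 in deleted oil, 86.5 and 105 in control estradiol and 153 and 147 in control oil. Estradiol libraries lay below oil libraries in both genotypes, at -0.42 ± 0.17 in deleted stroma, which did not pass (adjusted p = 0.106), and -0.65 ± 0.17 in control stroma, which did (adjusted p = 0.0216). In control stroma the call for Dkc1 held in each of the 8 fits that left out 1 library, and that for Nhp2 was lost without control estradiol library 2 (adjusted p = 0.0975). The call for Nop10 there was lost without control estradiol library 2 (0.145) or control oil library 2 (0.0647), and that for Nolc1 without either control estradiol library, deleted estradiol library 2 or control oil library 1 (adjusted p 0.0502 to 0.161). In deleted stroma, Dkc1 was lost without any 1 of the 4 deleted libraries (0.0534 to 0.0999), Nhp2 without either deleted estradiol library or deleted oil library 2 (0.0963 to 0.118), and Nop10 without deleted estradiol library 2 (0.0668) or deleted oil library 1 (0.0614). The exons of Dkc1 overlap those of Mpp1 on the other strand, and those of Nhp2 overlap Rmnd5b, and whether counting used the strand is not stated. Mpp1 had log2 fold changes of 0.70 and 0.63 in deleted and control stroma and Rmnd5b had -0.42 and -0.22, and neither passed.

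Both abundant nucleolar proteins were higher with estradiol. Npm1 (chromosome 11, 33152287 to 33163206, minus strand), nucleophosmin, a chaperone of the outer nucleolus, had 314 and 284 CPM in deleted estradiol, 192 and 145 in deleted oil, 284 and 295 in control estradiol and 204 and 157 in control oil. All estradiol libraries lay above all oil libraries, and it rose by 0.83 ± 0.20 in deleted stroma (adjusted p = 0.0196) and 0.68 ± 0.20 in control stroma (adjusted p = 0.0338). Ncl, nucleolin, which binds the rRNA precursor and had the highest CPM of the 36 genes, had 1281 and 1223 CPM in deleted estradiol, 1026 and 741 in deleted oil, 1244 and 1448 in control estradiol and 1114 and 815 in control oil. Its libraries did not overlap, and the distance between oil libraries was wide: the fold changes of 0.50 ± 0.23 and 0.48 ± 0.23 did not pass (adjusted p = 0.139 and 0.144), while the average over genotypes did, at 0.49 ± 0.16 (adjusted p = 0.0343). The call for Npm1 was lost in control stroma without either estradiol library of either genotype or control oil library 2 (adjusted p 0.0617 to 0.147), and in deleted stroma without either deleted estradiol library or deleted oil library 2 (0.0762 to 0.131). The last bases of the Npm1 transcript match 5 annotated pseudogenes, none of which has a line in the files, so its count depends on how reads with several matches were treated. The same limit holds for Nop56 (5 pseudogenes), Fbl (2), Wdr12 (2) and Polr1b (1).

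Genes for the small subunit moved in both directions. Utp20 (chromosome 10, 88746607 to 88826804, minus strand), a large scaffold protein of the processing complex, had 95.5 and 77.6 CPM in deleted estradiol, 37.5 and 40.2 in deleted oil, 85.9 and 84.2 in control estradiol and 32.7 and 40.4 in control oil. The lowest estradiol library stood far above the highest oil library, and Utp20 rose by 1.16 ± 0.19 in deleted stroma (adjusted p = 0.00434) and 1.22 ± 0.19 in control stroma (adjusted p = 0.00287). Heatr1, another scaffold protein, needed for Pol I transcription too, had 89.8 and 81.7 CPM in deleted estradiol, 66.9 and 53.3 in deleted oil, 86.6 and 111 in control estradiol and 65.3 and 57.7 in control oil. It separated the groups in both genotypes, at 0.51 ± 0.20 in deleted stroma, which did not pass (adjusted p = 0.0907), and 0.68 ± 0.20 in control stroma (adjusted p = 0.0318). Wdr43, a protein of the same early complex, had 101 and 116 CPM in deleted estradiol, 192 and 162 in deleted oil, 128 and 131 in control estradiol and 239 and 164 in control oil. Here the estradiol libraries were the low ones in both genotypes, at -0.71 ± 0.21 (adjusted p = 0.0385) and -0.64 ± 0.21 (adjusted p = 0.0489).

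The other 4 genes of this class did not pass in a single genotype. Wdr75, which works in the same early complex as Wdr43, had 0.52 ± 0.22 and 0.53 ± 0.22, and Rrp12, which helps export the small subunit, had 0.66 ± 0.33 and 0.62 ± 0.32. Both rose with the genotypes averaged, by 0.52 and 0.64 (adjusted p = 0.02 and 0.0457). Nop14 had -0.68 ± 0.23 and -0.62 ± 0.23 (adjusted p = 0.0583 and 0.0693), and fell in the average, at -0.65 ± 0.16 (adjusted p = 0.01). Its partner Noc4l had 0.23 ± 0.33 and 0.52 ± 0.33 and did not pass in the average. In the fits that left out 1 library, Utp20 held in all 8 in control stroma and was lost in deleted stroma without deleted estradiol library 1 (adjusted p = 0.0524). Heatr1 in control stroma was lost without either estradiol library of either genotype or control oil library 2 (0.0571 to 0.189). The fall of Wdr43 in control stroma was lost under more settings than any other call. It was lost in 7 of the 8 fits, all but that without control oil library 2 (0.0637 to 0.286), and without control oil library 1 the value was -0.31. It was also lost there at 0.0515 with library totals alone, 0.0537 with limma-voom, 0.0528 with a replicate block and 0.119 with only the 4 control libraries. In deleted stroma it was lost without any 1 of the 4 deleted libraries or either control estradiol library (0.0665 to 0.226).

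Among the 10 genes for the large subunit, the 3 proteins of the PeBoW complex (Pes1, Bop1 and Wdr12), which processes the precursor of the large-subunit rRNAs, were each called up in at least 1 genotype. Bop1 (chromosome 15, 76452989 to 76477277, minus strand) had 20.9 and 23.6 CPM in deleted estradiol, 10.7 and 9.14 in deleted oil, 21.7 and 25.7 in control estradiol and 9.15 and 9.21 in control oil. Every estradiol library was above every oil library, and Bop1 rose by 1.16 ± 0.23 in deleted stroma (adjusted p = 0.00901) and 1.36 ± 0.23 in control stroma (adjusted p = 0.00394). Pes1 (chromosome 11, 3963975 to 3980004, plus strand) had 17.5 and 17.1 CPM in deleted estradiol, 11.4 and 12.3 in deleted oil, 25.4 and 26.6 in control estradiol and 13.1 and 10.3 in control oil. The 2 control estradiol libraries were the highest, and the log2 fold change was 0.55 ± 0.23 in deleted stroma, which did not pass (adjusted p = 0.108), and 1.15 ± 0.23 in control stroma (adjusted p = 0.00672). The difference between the 2 was -0.60 ± 0.32 and did not pass the interaction test (unadjusted p = 0.0903, edgeR, adjusted p = 1). Wdr12, the member with the lowest level, had 13.9 and 11.6 CPM in deleted estradiol, 7.27 and 5.51 in deleted oil, 12.7 and 8.91 in control estradiol and 6.78 and 6.90 in control oil. Groups did not overlap in either genotype, and it rose by 0.99 ± 0.30 in deleted stroma (adjusted p = 0.0429), with 0.66 ± 0.30 in control stroma not passing (adjusted p = 0.13).

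Rrp1b and Gnl3 were lower with estradiol. Rrp1b (chromosome 17, 32036100 to 32062865, plus strand), a nucleolar protein that can hold a phosphatase at the nucleolus, had 52.0 and 57.1 CPM in deleted estradiol, 121 and 108 in deleted oil, 60.6 and 58.2 in control estradiol and 118 and 129 in control oil. The 4 estradiol libraries stood at about the same level, far under the 4 oil libraries, and Rrp1b fell in deleted stroma, at -1.07 ± 0.17 on the log2 scale (adjusted p = 0.00356), and in control stroma, at -1.05 ± 0.17 (adjusted p = 0.0029). Gnl3, nucleostemin, a GTPase that shuttles between nucleolus and nucleoplasm, had 65.7 and 80.9 CPM in deleted estradiol, 109 and 93.3 in deleted oil, 80.9 and 80.4 in control estradiol and 132 and 99.0 in control oil. It was lower in every estradiol library than in any oil library, did not pass in a single genotype (-0.46 ± 0.20 and -0.52 ± 0.20, adjusted p = 0.124 and 0.0809), and fell in the average by 0.49 ± 0.14 (adjusted p = 0.0202). The other 5 genes were Nop2, a methyltransferase of large-subunit rRNA, Nop16, Rrs1, Noc2l and Noc3l. Their log2 fold changes ran from 0.10 to 0.73 in deleted stroma and from -0.09 to 0.64 in control stroma, none passed, and Nop16 alone rose in the average, by 0.62 ± 0.18 (adjusted p = 0.0183).

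The calls in control stroma for Bop1, Pes1 and Rrp1b held in all 8 fits that left out 1 library. In deleted stroma, Bop1 was lost without either deleted estradiol library or deleted oil library 2 (adjusted p 0.0531 to 0.0687) and Rrp1b without deleted estradiol library 1 (0.0514). Wdr12 in deleted stroma was lost without any 1 of the 4 deleted libraries or either control estradiol library (0.0528 to 0.206), and at 0.0783 in DESeq2 and 0.053 under upper quartile scaling. Bop1 overlaps Mroh1 on the other strand, and Mroh1 had -0.46 and -0.14 in deleted and control stroma and did not pass. Ddx21, an RNA helicase of the nucleolus, and Mybbp1a, a regulator that can hold Pol I back, did not pass in either genotype or in the average. Ddx21 had 389 and 388 CPM in deleted estradiol, 373 and 292 in deleted oil, 424 and 422 in control estradiol and 434 and 324 in control oil. The groups overlapped in control stroma, at 0.16 ± 0.20, and in deleted stroma they lay apart by little, at 0.22 ± 0.20. Mybbp1a had 0.23 ± 0.23 in deleted stroma and 0.47 ± 0.23 in control stroma. On the other strand, Mybbp1a overlaps Spns2, which had -0.30 and -0.78 and did not pass. Noc2l overlaps Samd11, which fell in both genotypes, at -2.40 (adjusted p = 0.0336) and -2.78 (adjusted p = 0.0212), from levels of at most 3.95 CPM in any library.

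**Figure D3:**
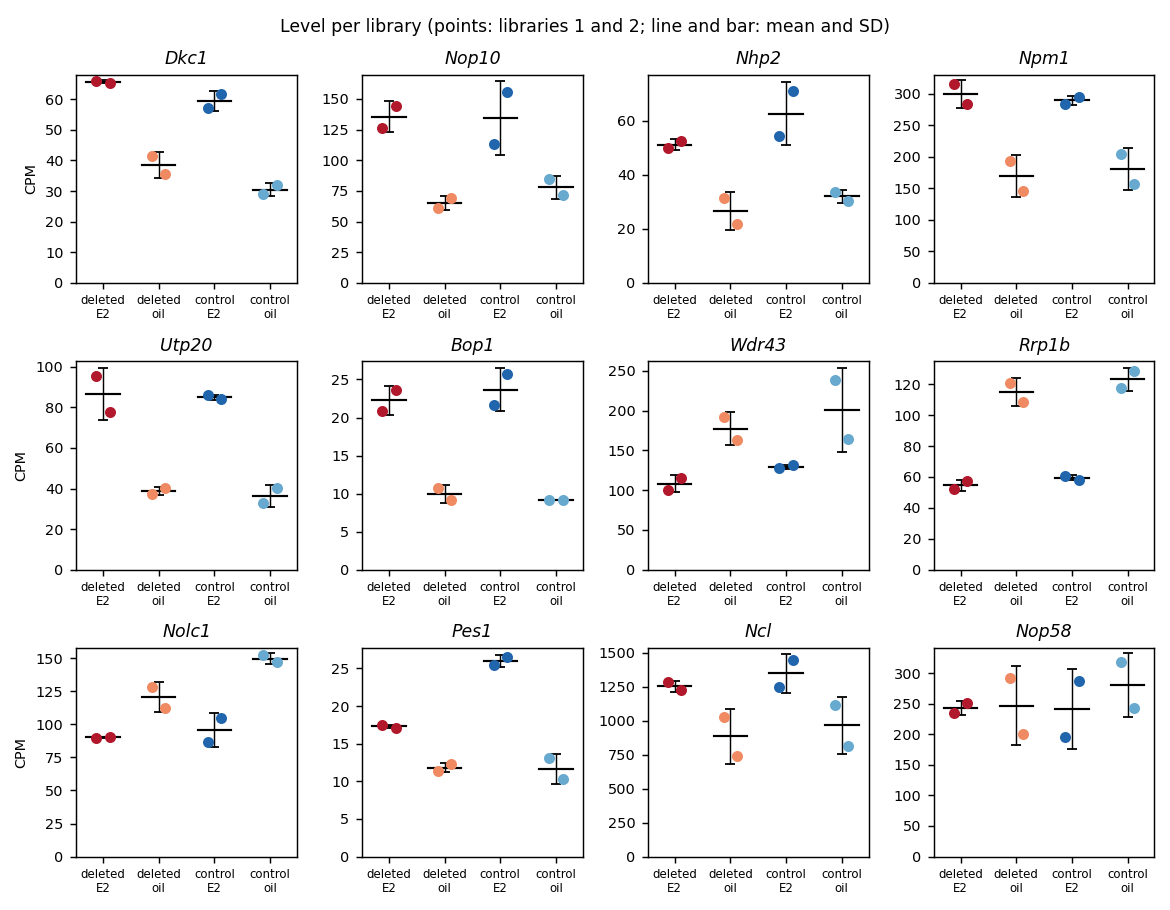
CPM (vertical axis, from 0) of 12 genes in the 4 groups (horizontal axis), with points for libraries 1 and 2 and lines and bars for the mean and SD. Rrp1b lies between 52.0 and 60.6 CPM in the 4 estradiol libraries and between 108 and 129 in the 4 oil libraries, and Pes1 is highest in the 2 control estradiol libraries.

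Some libraries set these results more than others. Calls over all genes also fell when some libraries were left out, as given at the end. Changes in the number of called members below are therefore not shown to be particular to the members. For the settings without both oil libraries of a number, no share over all genes is given. The 36 genes summed to 4208 and 4272 CPM in deleted estradiol, 3747 and 3092 in deleted oil, 4194 and 4735 in control estradiol and 4061 and 3335 in control oil. In oil, library 1 was the higher one for 26 of 36 genes in deleted stroma and 23 of 36 in control stroma. In both genotypes it was also the oil library with the higher sum of epithelium markers. With estradiol, library 1 was the higher one for 15 of 36 genes in deleted stroma and 11 of 36 in control stroma. There it had the lower sum of epithelium markers in both genotypes. Whether member levels and epithelium markers are linked was not tested. In 2 settings added after the data were seen, both oil libraries of a number were left out. Control stroma then had 15 members up without those numbered 1, which hold the higher member levels, and 8 up and 5 down without those numbered 2, where the members' median was 0.25. Leaving out 1 library at a time gave 1 to 10 members called up in deleted stroma. The count was 1 without either deleted estradiol library, 4 without deleted oil library 1 and 3 without deleted oil library 2. In control stroma the same fits gave 4 to 11, with 4 reached without control estradiol library 2. With only the 4 control libraries in the fit, the calls of Polr1d (adjusted p = 0.0623), Nop10 (0.0726), Nolc1 (0.0706), Npm1 (0.0933) and Heatr1 (0.0881) in control stroma were lost, besides that of Wdr43. The members' median in control stroma dropped to 0.25 when control oil library 2 was left out, and to 0.39 when control estradiol library 2 was.

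The second question was whether losing Atg7 changed these genes. No gene of the 13347, and so no member, was called in oil (0%), after estradiol (0%) or in the interaction (0%), and DESeq2 called none either. With both treatments averaged, edgeR called none (0%) and 1 member had an unadjusted p below 0.05, while DESeq2 called 3 genes and the fit with no filter 4, none of them members. At an unadjusted p below 0.05, edgeR had 339 genes (2.54%) in oil, 403 (3.02%) after estradiol and 210 (1.57%) in the interaction, of which 1, 1 and 0 were members, and DESeq2 had 212, 277 and 138, of which 1, 0 and 0 were members. The member in oil was Rrs1, which helps bring a small ribosomal RNA into the large subunit, with 52.2 and 40.3 CPM in deleted oil against 81.1 and 63.4 in control oil. Both deleted libraries lay below both control libraries, at -0.64 ± 0.21 (unadjusted p = 0.0144, edgeR, adjusted p = 1), with a 95% interval from -1.13 to -0.16. After estradiol Rrs1 had 61.7 and 57.3 CPM in deleted and 74.9 and 61.3 CPM in control stroma, and the libraries overlapped, at -0.20 ± 0.21. The member after estradiol was Pes1, with 17.5 and 17.1 CPM in deleted stroma against 25.4 and 26.6 in control stroma, at -0.59 ± 0.22 (unadjusted p = 0.0254, edgeR, adjusted p = 1; 95% interval -1.08 to -0.09). In oil Pes1 had 0.02 ± 0.23.

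Over the 36 genes, the median log2 fold change of deletion was -0.07 in oil and -0.09 after estradiol. Over all tested genes it was -0.01 and -0.01. Of the 36 values, 25 in oil and 22 after estradiol were below 0. Over all 13347 tested genes, 6863 and 6956 were below 0, and over the 152 other tested genes of the pathway, described below, 104 and 84. The members' oil median was -0.21 without deleted oil library 1 and 0.08 without control oil library 1. Libraries did not overlap for 5 members in oil (2 higher and 3 lower in deleted stroma) and for 11 after estradiol (2 higher and 9 lower). Over all genes, 12.9% were higher and 11.6% lower in deleted oil without overlap, and 16% higher and 18.2% lower in deleted stroma after estradiol. Fold changes ran from -0.64 to 0.34 in oil and from -0.59 to 0.23 after estradiol. The 95% intervals reached down to -1.44 and up to 0.75 in oil, and down to -1.10 and up to 0.90 after estradiol, so that for genes with scattered libraries, such as Fbl, a change of more than 1 log2 unit stays within the interval.

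**Figure D4:**
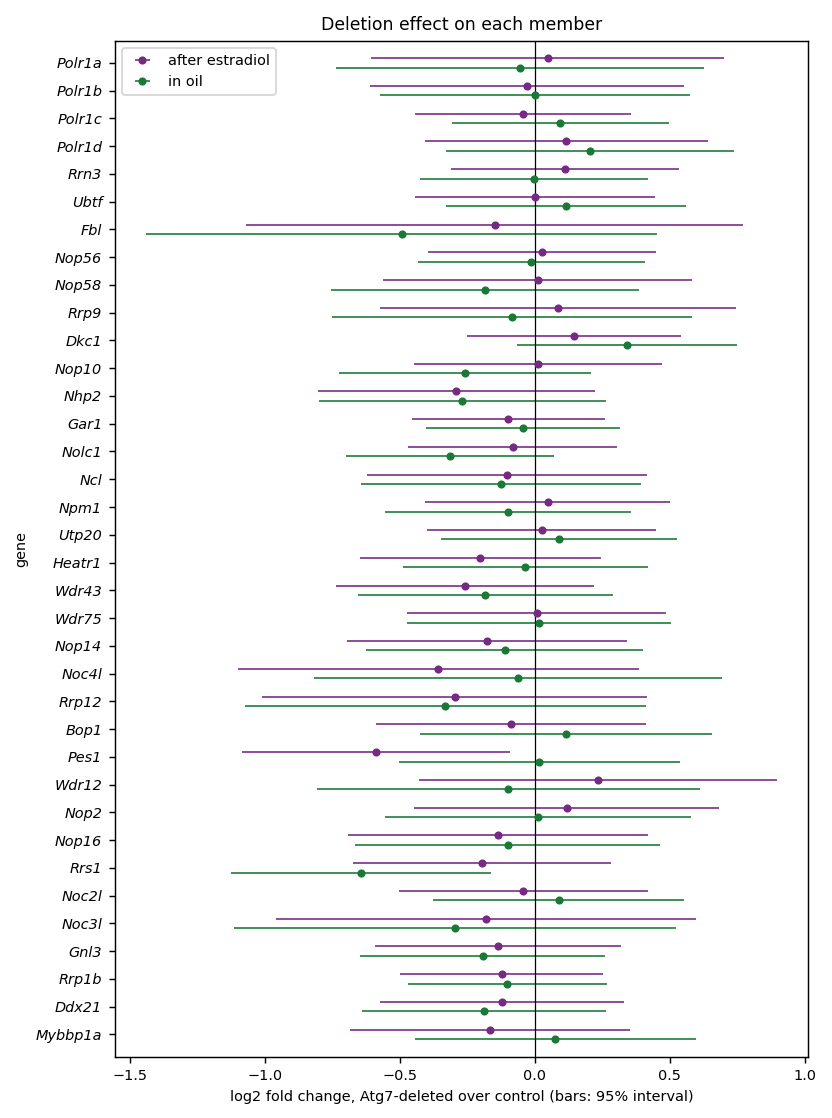
Log2 fold change of Atg7-deleted over control stroma (horizontal axis, bars: 95% interval) for each of the 36 genes (vertical axis) after estradiol (purple) and in oil (green). The intervals of all but Pes1 after estradiol and Rrs1 in oil include 0.

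Other genes of the pathway were written down by role, 154 of which 152 were tested. In deleted stroma 22 rose (14.5%) and 4 fell (2.63%), and in control stroma 24 rose (15.8%) and 5 fell (3.29%), with medians of 0.23 and 0.17. Rises were thus at about the share over all genes (13.1% and 15.8%), and calls in either direction, 17.1% and 19.1%, stood below the 24.3% and 29.8% of all genes. By list, 23 genes were tested of the exosome, which trims rRNA precursors, and of RNase MRP, which cuts them. These genes had 4 rises and no fall in deleted stroma (17.4%), and 8 rises and no fall in control stroma (34.8%). Their medians were 0.67 and 0.61. Among them Pop7, an RNase MRP protein, averaged 19.3 ± 4.09 CPM in deleted estradiol and 6.79 ± 0.238 in deleted oil (SD, n = 2), a rise of 1.50 ± 0.26 (adjusted p = 0.0049). Its averages in control stroma were 19.1 ± 0.679 CPM with estradiol and 8.36 ± 0.445 in oil. Of the 5 subunits shared by Pol I, II and III, 3 rose in deleted stroma (60%) and 2 in control stroma (40%). Polr2f, one of them, averaged 144 ± 1.13 CPM in deleted estradiol and 63.4 ± 8.12 in deleted oil, and 134 ± 0.756 in control estradiol and 49.9 ± 5.01 in control oil, with rises of 1.18 ± 0.17 (adjusted p = 0.00291) and 1.42 ± 0.17 (adjusted p = 0.00118). Of the 12 other Pol I and ribosomal DNA genes, 1 rose and none fell in deleted stroma (8.33% called). In control stroma 1 rose and 1 fell (16.7%), and both shares lay below those over all genes. The riser was Tcof1, treacle, a nucleolar partner of Ubtf, with 0.79 ± 0.16 (adjusted p = 0.00893) and 1.03 ± 0.16 (adjusted p = 0.00258).

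Of 53 other small subunit genes, 5 rose and 2 fell in deleted stroma, and 6 rose and 1 fell in control stroma, 13.2% called in each, below the share over all genes. The genes named here are those with the smallest adjusted p. Emg1, a methyltransferase of small-subunit rRNA, rose by 1.03 ± 0.17 in control stroma (adjusted p = 0.0032), and Pno1, an assembly factor of that subunit, by 1.69 ± 0.27 in deleted stroma (adjusted p = 0.00367). Emg1 also averaged 141 CPM in deleted estradiol against 76.1 in deleted oil. Pno1 averaged 24.5 CPM in control estradiol against 8.78 in control oil. Riok1, a kinase of late small-subunit assembly, fell in deleted stroma, at -0.69 ± 0.18 (adjusted p = 0.0272). In control stroma Riok1 averaged 57.3 CPM with estradiol and 82.9 in oil. Of 53 other large subunit genes, 9 rose and 2 fell in deleted stroma (20.8% called). In control stroma 7 rose and 3 fell (18.9%), and both shares lay below those over all genes. Among the falls in control stroma was Gtpbp4, a nucleolar GTPase, at -0.73 ± 0.18 (adjusted p = 0.0157). In deleted stroma Gtpbp4 averaged 117 CPM with estradiol and 172 in oil. Of 11 other genes for snoRNA particles, 3 rose and none fell in deleted stroma (27.3%), and 2 rose and none fell in control stroma (18.2%). The 81 tested ribosomal proteins of the cytosol, the proteins these factors assemble on rRNA, had 6 rises and no fall in deleted stroma and 5 rises and 1 fall in control stroma, with medians of 0.11 and 0.04. Their share of calls was below that over all genes in both genotypes.

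**Figure D5:**
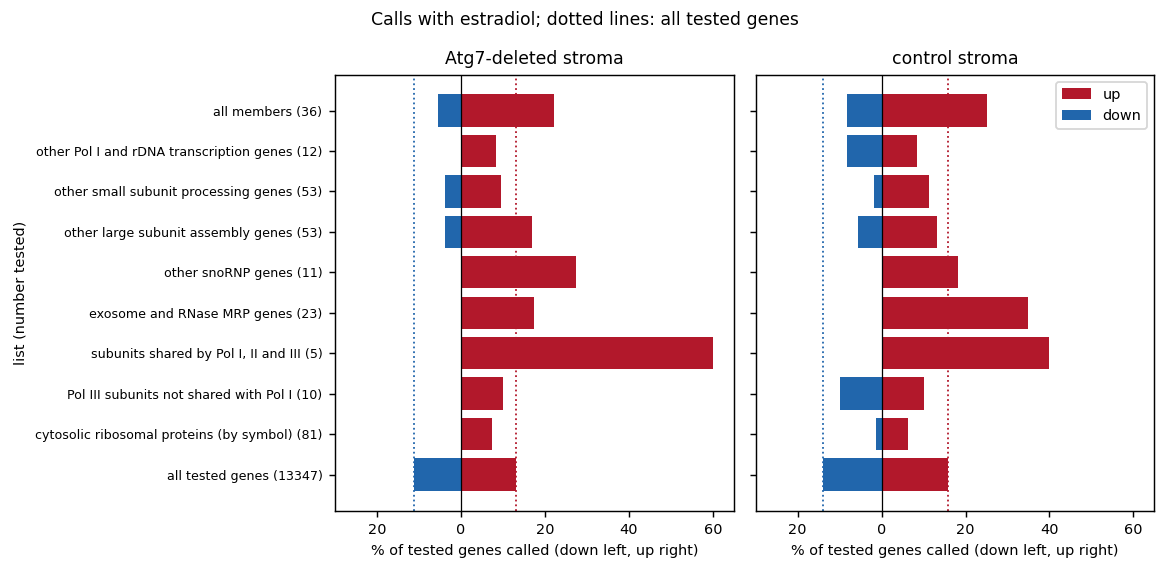
Percent of tested genes called up (red, to the right) and down (blue, to the left) with estradiol in each list (vertical axis, number tested in brackets), for Atg7-deleted stroma (left panel) and control stroma (right panel), with dotted lines at the shares over all tested genes. The members lie beyond the dotted line for rises and short of that for falls in both panels, and the ribosomal proteins lie short of both.

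Myc, the transcription factor best known for driving ribosome biogenesis, did not separate the groups. It had 39.0 and 36.7 CPM in deleted estradiol, 22.9 and 55.9 in deleted oil, 76.1 and 33.0 in control estradiol and 18.3 and 113 in control oil. Libraries of estradiol and oil overlapped in both genotypes, with log2 fold changes of -0.06 ± 0.73 and -0.26 ± 0.72 that did not pass. Oil library 1 was low and oil library 2 high in both genotypes. Of the 11 genes of the Myc network, 3 rose and 2 fell in each genotype. These calls were 45.5%, against 24.3% of all genes in deleted stroma and 29.8% in control stroma. Mycl, a relative of Myc, had 5.94 and 6.96 CPM in deleted estradiol against 46.5 and 21.1 in deleted oil, and 6.01 and 6.45 in control estradiol against 56.6 and 30.3 in control oil. It fell by 2.38 ± 0.43 on the log2 scale in deleted stroma (adjusted p = 0.00621), and its log2 fold change in control stroma was -2.80 ± 0.43 (adjusted p = 0.00264). The risers were Mxd4 and Mxd3, Max partners that repress, and Mlx, a relative of Max. Mxd4 averaged 12.5 ± 0.696 CPM in deleted estradiol against 4.58 ± 0.883 in deleted oil, and 8.43 ± 0.465 in control estradiol against 3.58 ± 0.0621 in control oil (SD, n = 2), at 1.44 ± 0.30 (adjusted p = 0.00996) and 1.23 ± 0.31 (adjusted p = 0.0172). Mlx had 0.99 in both genotypes (adjusted p = 0.0462 and 0.0393), and Mxd3 lay between 1.08 and 2.23 CPM in estradiol libraries and at or below 0.177 CPM in oil libraries. Mga, a Max partner that represses E-box genes, fell in both genotypes, at -0.85 ± 0.19 (adjusted p = 0.0133) and -0.98 ± 0.19 (adjusted p = 0.00606).

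Annotated snoRNAs were sought by names that begin with Snord, Snora or Scarna, within each gene and on its strand. They were found in 5 of the 36 genes, 13.9%, against 63 of 12453 tested protein-coding genes (0.506%). SnoRNAs under other names were not counted, so both shares may be too low and other members may be hosts. The hosts found were Nop56 (Snord57 and Snord110), Nop58 (Snord11 and Snord70), Ncl (Snora75 and Snord82), Wdr43 (Snord53 and Snord92) and Gnl3 (Snord19 and Snord69). Of these hosts, Wdr43 fell in both genotypes and the other 4 passed in neither, and in the average Gnl3 fell and Ncl rose. Wdr43 lies on chromosome 17 from 71615895 to 71659031 on the plus strand and Gnl3 on chromosome 14 from 31012433 to 31019152 on the minus strand. The snoRNAs themselves were not analysed here.

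Outside all the lists, the 5 genes whose log2 CPM ran closest to the mean of the 36 members were Slc39a1, a zinc transporter, Sprr2f, a cornified envelope protein, Hnrnpu, a nuclear RNA-binding protein, Tspan1, a tetraspanin, and G6pdx, the entry enzyme of the pentose phosphate pathway. Pearson's r over the 8 libraries ran from 0.987 to 0.991, as a description, and the 8 libraries fall into the 4 estradiol and 4 oil libraries. Sprr2f had 291 and 461 CPM in deleted estradiol, 36.2 and 8.51 in deleted oil, 386 and 1462 in control estradiol and 116 and 10.4 in control oil. G6pdx had 27.2 and 30.9 CPM in deleted estradiol, 14.5 and 8.19 in deleted oil, 33.2 and 39.0 in control estradiol and 15.3 and 10.3 in control oil. In these 2 genes, as in the members' sums, control estradiol library 2 was the highest library and the oil libraries numbered 2 the lowest of their groups.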

How the data were processed

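Per the labels, libraries were made with a QuantSeq kit, whose name stands for reading 3′ ends, from 500 ng of total RNA taken up in Trizol. The authors deposited 1 file of raw read counts per gene symbol for each library, with no normalization, a unit settled from the values. Bowtie2, edgeR and mm10 are named in the submitters' processing notes, with neither version nor role. Counter, annotation and use of strand: not given in the sources used here. Files had 23282 lines for 23238 symbols. Of the lines of 35 repeated symbols, that with most reads was used, and the lines left out held 0.0973% of counts.

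Genes were kept with filterByExpr (minimum count 10, minimum total 15), leaving 13347, and scaled by the trimmed mean of M-values (TMM, factors 0.918 to 1.03). The quasi-likelihood test of edgeR 4.0.16, run in R 4.3.3, used 1 mean per group over all 8 libraries (4 residual and 5.08 prior degrees of freedom, biological coefficient of variation 21.75%), with Benjamini-Hochberg adjustment over all tested genes at 0.05. The script was tested on simulated counts. SE came from the fold change and its test statistic. CPM are TMM-scaled. Alternatives were DESeq2 1.42.0, library totals, upper quartile scaling, no filter, a mean of at least 10 CPM, limma-voom 3.58.1, a replicate block, only the 4 libraries of a contrast, repeated symbols summed, and each library left out, where a lone library is assumed to vary like the other groups.

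The members and all gene lists were chosen with earlier results of these data known. Values in every library are given for members called in a pairwise contrast or the interaction and for the member with the highest mean CPM of each role. Of the other lists, up to 3 genes per direction and contrast with the smallest adjusted p and at least 10 CPM are named, with Myc, and the 5 genes outside the lists closest to the members' mean. Fbl, Rrs1, Mxd3, Mxd4, Mlx and the genes passing in the average over genotypes were named after their values were seen. Coordinates and the snoRNAs within genes, found by name, came from GENCODE M21 and promoters from RefSeq. Pseudogenes were counted where they matched the last 300 bases of a transcript over at least 100 bases at 95% identity.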

Additional observations from a re-analysis of the deposited data

How the results depend on the processing

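No member changed direction with a call under any setting, and no member was called with deletion or in the interaction under any. With estradiol in control stroma, 9 members were called up and 3 down. With only the 4 control libraries in the fit the counts were 5 and 1, without both oil libraries numbered 1 there were 15 up, and without both numbered 2, the mirror setting, 5 down in control stroma and 4 down in deleted stroma. Leaving out 1 library at a time gave 4 to 11 up and 1 to 4 down in control stroma, 1 to 10 up and 0 to 3 down in deleted stroma (8 and 2 with all libraries), and 11 to 20 up in the average over genotypes (17 with all). Same-numbered libraries shared variation within a treatment, most in oil, and not between treatments. Their deviations correlated across genes at 0.464 between the oil groups, 0.213 between the estradiol groups and -0.214 to -0.0108 between treatments. The main fit did not use the number, so the deletion comparisons take no account of a pairing within a treatment. A replicate block gives the number the same effect in all 4 groups, so it cannot settle such a pairing. With the number as a replicate block, 10 members were called up and 2 down in control stroma and 8 and 2 in deleted stroma. Over all genes, 2107 up and 1871 down in control stroma became 986 and 519 without control estradiol library 1, and 1746 up and 1496 down in deleted stroma became 511 and 229 without deleted estradiol library 1. With 2 libraries per group, a value that did not pass is not shown to be unchanged.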
